A study of Mus musculus with 68 samples.

Results

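The Kv4 A-type potassium channel complex was taken as 9 genes, found by symbol in the deposited table of 36172 genes, and 8 of the 9 had a count in at least 1 of 68 neurons. They are the pore genes Kcnd1, Kcnd2 and Kcnd3, the Kv channel interacting protein (KChIP) genes Kcnip1, Kcnip2, Kcnip3 and Kcnip4, and the dipeptidyl peptidase-like (DPP) genes Dpp6 and Dpp10. The 68 libraries were dopamine neurons of the VTA (ventral tegmental area), each sequenced alone by Patch-seq, in which the contents of a neuron and its nucleus are drawn into the recording pipette once the recording has ended. Of these, 33 neurons came from 3xTg mice and 35 from wild-type (WT) mice, all 12 months old, with males and females pooled. The 3xTg mice are homozygous for human transgenes that include APP Swe and tau P301L, on a C57BL/6;129X1/SvJ;129S1/Sv hybrid background, and the WT mice were kept as a separate line on that background without the transgenes, so line and transgenes cannot be told apart. Each deposited sample was 1 neuron and no label names its mouse. Each genotype was therefore 1 sample, no test between genotypes is given, and every SD below describes the spread across cells and not across animals.

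Kv4 channels carry a transient outward potassium current, the A-type current, that activates below spike threshold and inactivates within a short time. In dopamine neurons this current slows the approach to the next spike and so takes part in setting the pacemaker rate, and the study recorded it in both genotypes beside the current of SK channels. A Kv4 channel holds 4 pore subunits encoded by Kcnd genes. KChIPs are cytosolic calcium-binding proteins that attach to the N-terminus of the pore subunit and raise its surface expression, while DPP6 and DPP10 are single-pass membrane proteins without peptidase activity that speed up opening and recovery of the channel. The question put to these counts was which subunits a VTA dopamine neuron transcribes, which of them occur in the same neuron, and how the levels compare between 3xTg and WT.

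Promoters are printed for the 3 genes that led their families by counts, Kcnd3, Kcnip4 and Dpp6, and for Kcnip2, the gene without a count, because these 4 mark the 2 ends of the range of levels described below. The sequences are the 250 bases before the RefSeq start in GRCm38.p6 (mm10), and 8 of the 9 genes had an entry. Kcnip1, Kcnip3 and Dpp6 had 3 RefSeq starts and Kcnip4 had 2. Only the start nearest to that in the authors' table was used. They lie at chr3:105451640-105451889 on the plus strand (Kcnd3), chr5:49285660-49285909 on the minus strand (Kcnip4), chr5:26817107-26817356 on the plus strand (Dpp6) and chr19:45816064-45816313 on the minus strand (Kcnip2). The RefSeq start equals the start in the authors' table for Kcnip4 and Dpp6 and lies 440 and 260 bases away from it for Kcnd3 and Kcnip2. They are written 5′ to 3′ along the gene, with capitals for a TATA box (TATAAA on either strand).
Kcnd3: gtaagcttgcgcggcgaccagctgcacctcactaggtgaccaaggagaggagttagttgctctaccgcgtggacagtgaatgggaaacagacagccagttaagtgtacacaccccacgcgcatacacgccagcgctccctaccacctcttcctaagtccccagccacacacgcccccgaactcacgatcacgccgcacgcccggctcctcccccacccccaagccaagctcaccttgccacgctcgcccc
Kcnip4: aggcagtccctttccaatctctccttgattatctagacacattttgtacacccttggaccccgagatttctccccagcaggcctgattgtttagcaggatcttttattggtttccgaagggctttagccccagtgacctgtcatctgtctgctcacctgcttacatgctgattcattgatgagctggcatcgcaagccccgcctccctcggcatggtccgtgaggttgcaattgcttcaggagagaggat
Dpp6: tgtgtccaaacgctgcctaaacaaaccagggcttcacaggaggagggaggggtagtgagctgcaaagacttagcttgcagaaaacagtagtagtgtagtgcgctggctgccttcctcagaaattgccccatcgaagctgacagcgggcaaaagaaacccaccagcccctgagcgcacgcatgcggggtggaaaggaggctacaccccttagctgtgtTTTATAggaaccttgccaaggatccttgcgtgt
Kcnip2: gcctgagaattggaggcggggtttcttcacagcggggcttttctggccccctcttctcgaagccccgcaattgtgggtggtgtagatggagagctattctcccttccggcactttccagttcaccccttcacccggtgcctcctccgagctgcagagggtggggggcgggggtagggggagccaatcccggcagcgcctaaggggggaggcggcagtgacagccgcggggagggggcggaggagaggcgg
The Dpp6 promoter held 1 TATA box, on the opposite strand, a match found in 12.4% of all 32851 promoters of this length. None of the 8 promoters held the NBRE (AAAGGTCA), the site bound by the dopamine neuron factor Nr4a2, or a full CRE (TGACGTCA), the site bound by CREB, on either strand. Those motifs occurred in 1.34% and 1.55% of all promoters. The other starts of Kcnip1, Kcnip3, Kcnip4 and Dpp6 were not scanned. CpG pairs were not in the order of the levels. The promoter of Kcnip4, the member with the most counts, held 6, equal to the median of all promoters, and that of Kcnip2, with no count, held 15.

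The 3xTg neurons held between 676556 and 1678624 counts each, with 1194457 at the median, and the WT neurons between 492505 and 1327367, with 982390 at the median. The median number of genes with a count was 8511 and 7476. Of 8 genes listed for dopamine neurons, Th, Slc6a3, Slc18a2 and Ddc had a count in all 68 neurons. En1 was counted in 33 3xTg and 32 WT neurons, Nr4a2 in 30 and 34, Foxa2 in 13 and 6 and Pitx3 in 9 and 5. All 8 were counted together in 5 3xTg neurons and 1 WT neuron. The authors had kept neurons with Th, Slc6a3 and Slc18a2 and without Pvalb, Tmem119, P2ry12 and Aldh1l1, but 5 neurons of each genotype had a count of at least 1 of the latter genes. Transcripts of other cell types were present as well. The summed level of 4 astrocyte markers ran from 0 to 272 CPM over 3xTg and from 0 to 2410 CPM over WT neurons, with Aldh1l1 at 0 in all. For 4 microglial markers the range was 0 to 3294 and 0 to 2329 CPM, with Tmem119 at 0 in 3xTg, for 4 oligodendrocyte markers 0 to 555 and 1.51 to 2537 CPM, with Mog at 0 in WT, and for 4 GABA neuron markers 1.10 to 167 and 3.01 to 267 CPM. Mbp, of oligodendrocytes, was counted in 32 3xTg and all 35 WT neurons, with sums of 2802 and 8757. C1qb, of microglia, had sums of 2797 and 10935, Slc1a3, of astrocytes, 431 and 4428, while sums of Cx3cr1, of microglia, were 522 and 402, of Gfap, of astrocytes, 56 and 31, and of Mog 54 and 0. The median summed level of the microglial markers was 24.3 CPM in 3xTg and 23.7 CPM in WT, and the endothelial genes Cldn5 and Pecam1 had no count. The part of these transcripts in the values of the Kv4 genes was not tested. The neurons' label numbers lie in runs of 1 genotype. The first runs hold 17 WT and 21 3xTg neurons, the second runs 15 and 12, and a last run 3 WT neurons. What the numbers mark is not stated, so values are also given by run.

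Kcnd3, which encodes the Kv4.3 pore subunit, supplied nearly all pore counts. It lies on chromosome 3 (mm10, 105452330 to 105674002, plus strand). Counts per neuron ran from 0 to 819, with a median of 137, in 3xTg and from 0 to 546, with a median of 51.2, in WT, so that the genotypes overlapped over most of the range. A count was present in 31 of 33 3xTg neurons (93.9%, 95% exact Clopper-Pearson interval 79.8 to 99.3) and in 27 of 35 WT neurons (77.1%, 59.9 to 89.6). At a minimum of 10 counts these were 29 and 21 neurons. The level, as the mean over neurons of log2(normalized count + 1), was 6.21 ± 2.39 (SD, n = 33) in 3xTg neurons against 4.25 ± 3.21 (n = 35) in WT neurons, which is 1.96 higher in 3xTg. The median difference of the 13283 genes with a count in at least 7 neurons was 0.35 on this scale, and relative to it Kcnd3 stood 1.61 higher. Among neurons with a Kcnd3 count the difference was 1.12. The counts summed over neurons were 5569 in 3xTg and 3528 in WT, or 152 and 104 CPM (counts per 1000000 counts of the genotype), a log2 ratio of 0.55 (0.49 to 0.61, exact interval for counting error only). A difference of the mean weighs each neuron equally and so includes the neurons at 0, whereas a sum is weighted to the neurons with the most counts, and the 5 highest neurons held 43.2% of the 3xTg sum and 52.6% of the WT sum. Within the first and second runs the difference of the mean was 2.09 and 2.06, and the log2 ratio of sums 0.87 and 0.26.

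Kcnd2, which encodes Kv4.2, was counted in few neurons and Kcnd1, which encodes Kv4.1, in almost none. The 11 3xTg neurons with Kcnd2 held from 1 to 87 counts and the 6 WT neurons from 7 to 64. The sums were 366 and 137, a log2 ratio of 1.31 (1.021 to 1.602). This value rested on single neurons, since it was 0.97 without 3xTg 38 and 2.17 without WT 18 (numbers from the labels). In the first and second runs the log2 ratio of sums was 1.29 and 0.57. The difference of the mean was 0.74 over all neurons, and 0.86 and 0.38 in these runs. Kcnd1 had 1 count in 1 3xTg neuron and 38 counts in 3 WT neurons, of which WT 64 held 84.2%. Its ratio of sums was 0.0244, or −5.36 on the log2 scale with a counting interval of −10.7 to −2.79, and −2.74 without WT 64. Kcnd3 made up 93.8% of all Kcnd counts in 3xTg and 95.3% in WT, and after division by exon length 91.1% and 93.2%.

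Among the KChIP genes Kcnip4 (chromosome 5, 48389503 to 49285659, minus strand) led by a wide margin. KChIP4 occurs in splice forms that differ in their effect on Kv4 channels, and counts per gene do not separate them. Counts per neuron ran from 0 to 1856 with a median of 409 in 3xTg and from 0 to 1740 with a median of 274 in WT. A count was present in 32 of 33 3xTg (97.0%, 84.2 to 99.9) and 30 of 35 WT neurons (85.7%, 69.7 to 95.2), and all 32 of those 3xTg neurons but 26 of the WT neurons held at least 10. The mean level was 8.40 ± 1.94 in 3xTg neurons against 6.53 ± 3.68 in WT neurons. The difference of 1.87 was 1.52 above that of the median gene. Among neurons with a Kcnip4 count the difference was 1.045. The sums were 19374 and 14310 counts (528 and 421 CPM), a log2 ratio of 0.33 (0.30 to 0.36). The value depended on the run. The difference of the mean was 2.54 in the first runs and 0.56 in the second, where the median gene stood at 0.38, and the log2 ratio of sums was 0.54 and 0.05. The WT neurons themselves differed by 2.16 between their first and second run, more than the genotypes did over all neurons, while the 3xTg neurons differed by 0.17. In the first WT run 13 of 17 neurons had a count of Kcnip4, in the second 15 of 15.

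Kcnip3 encodes KChIP3, also known as calsenilin and DREAM, which acts as a transcriptional repressor besides its role at the channel. Of the 33 3xTg neurons 25 had a count, and of the 35 WT neurons 22, but most of these held few. The median over neurons was 1 count in 3xTg and 1.5 in WT, and 12 and 6 neurons held at least 10. The mean level was 2.65 ± 2.68 and 2.00 ± 2.48, a difference of 0.65. The sums were 1130 and 1202, and WT 14 alone held 38.9% of the latter. The log2 ratio of sums was −0.20, with WT 14 left out 0.47, and it was −1.03 in the first and 1.81 in the second runs, so the ratio of sums held no direction. The difference of the mean was 0.44 and 0.67 in these runs. Kcnip1 was counted in 1 3xTg neuron (48 counts) and 2 WT neurons (142 counts, 99.3% of them in WT 7). Kcnip2, the KChIP best known from heart muscle, had no count in any neuron. Taken as 3 of 33 and of 35 neurons, this allows a share of neurons with a count of up to 9.09% in 3xTg and 8.57% in WT, and the exact interval used for the other shares reaches 10.58% in 3xTg. This does not limit the share that transcribe the gene.

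Dpp6 (chromosome 5, 26817357 to 27727500, plus strand) was the leading DPP gene. Counts per neuron ran from 0 to 757 with a median of 280.5 in 3xTg and from 0 to 778 with a median of 138 in WT. Neurons with a count numbered 31 of 33 (93.9%) and 28 of 35 (80%, 63.1 to 91.6). The mean level was 7.22 ± 2.43 against 5.47 ± 3.26. This difference of 1.75 exceeded that of the median gene by 1.40. Among neurons with a Dpp6 count the difference was 0.85. The sums were 9993 and 5983 (272 and 176 CPM), a log2 ratio of 0.63 (0.58 to 0.68). Both runs kept the direction, with differences of the mean of 1.96 and 1.76 and log2 ratios of sums of 0.83 and 0.40. Dpp10 was counted in 26 of 33 3xTg (78.8%, 61.09 to 91.02) and 22 of 35 WT neurons (62.9%, 44.9 to 78.5), with medians of 79.3 and 30.2 counts. Its mean level was 4.99 ± 3.01 and 3.82 ± 3.37, a difference of 1.17, and its sums were 4132 and 2972, a log2 ratio of 0.37 (0.30 to 0.43). Within the first and second runs its differences of the mean were 0.93 and 0.60, both below the value over all neurons. The 3 WT neurons of the last run, which enter the latter alone, had no count of Dpp10. Among neurons with a Dpp10 count the difference was 0.26.

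**Figure D1:**
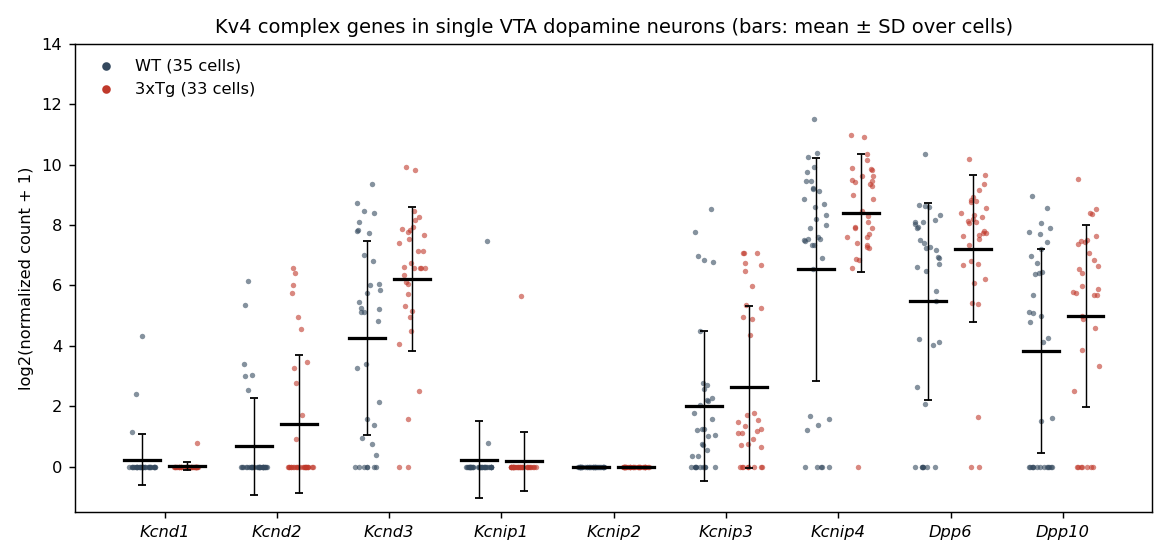
Level of each Kv4 complex gene in single neurons, as log2(normalized count + 1) on the vertical axis, for 35 WT (grey) and 33 3xTg (red) neurons. Points are neurons, horizontal bars the mean and whiskers the SD across neurons. Kcnd3, Kcnip4, Dpp6 and Dpp10 form a band of neurons at high levels and a group at 0 that holds more WT than 3xTg neurons, and Kcnip2 is at 0 throughout.

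**Figure D2:**
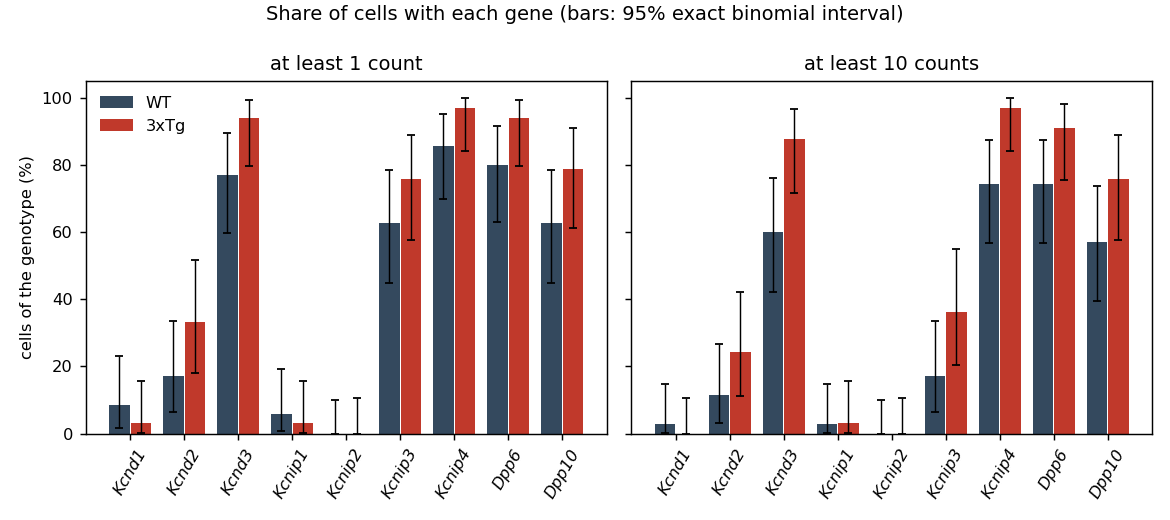
Share of neurons of each genotype with a gene, in percent, at a minimum of 1 count (left) and of 10 counts (right). Bars are 35 WT (grey) and 33 3xTg (red) neurons and whiskers the 95% exact binomial interval, which covers counting error only. Kcnip3 falls from 25 to 12 3xTg neurons and from 22 to 6 WT neurons between the panels, while Kcnip4 stays at 32 3xTg neurons.

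The 6 members with a count in at least 7 of the 68 neurons could be set beside the other genes that passed this filter, namely Kcnd2, Kcnd3, Kcnip3, Kcnip4, Dpp6 and Dpp10. All 6 were higher in 3xTg by the mean over neurons, as were 71.1% of the 13283 genes. Kcnd3, Kcnip4, Dpp6 and Dpp10 were higher by at least 1 on the log2 scale, 4 of the 6, against 21.2% of the genes, and none was lower by 1, against 0.693%. The median difference of the 6 was 1.46, and 0.95 over the 8 members with a count. By summed counts 5 of the 6 were higher in 3xTg, against 47.4% of the genes, and 1, Kcnd2, by at least 1 on the log2 scale, against 11.4%. None of the 6 was lower by at least 1, against 13.4% of the genes. The median log2 ratio of sums was 0.46 for the 6 and −0.05 for all genes. With neurons thinned to 700471 counts each, which left out 2 3xTg and 5 WT neurons of lower totals, the differences of the mean were 1.45 for Kcnd3, 1.31 for Kcnip4, 1.38 for Dpp6 and 1.08 for Dpp10, beside 0.25 for the median gene. Without the 10 neurons with a count of Pvalb, Tmem119, P2ry12 or Aldh1l1 they were 1.67, 1.90, 1.86 and 0.91, beside 0.34, although the neurons kept still held other transcripts such as Mbp. Differences of the mean were also above 0 for genes of dopamine neurons, at 0.41 for Th, which makes dopamine's precursor, 0.58 for the dopamine transporter gene Slc6a3 and 1.87 for Calb1, which encodes the calcium buffer calbindin and marks a subset of VTA dopamine neurons. Of the other genes listed for subsets of dopamine neurons, Sox6 stood at 1.05, Kcnn3 at 0.86, Slc17a6 at 0.38, Otx2 at 0.18, Lpl at −0.50 and Aldh1a1 at −0.89, the last with a log2 ratio of sums of 0.30. The part of depth, or of the makeup of the sampled neurons, in the values of the Kv4 genes was not tested further.

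**Figure D3:**
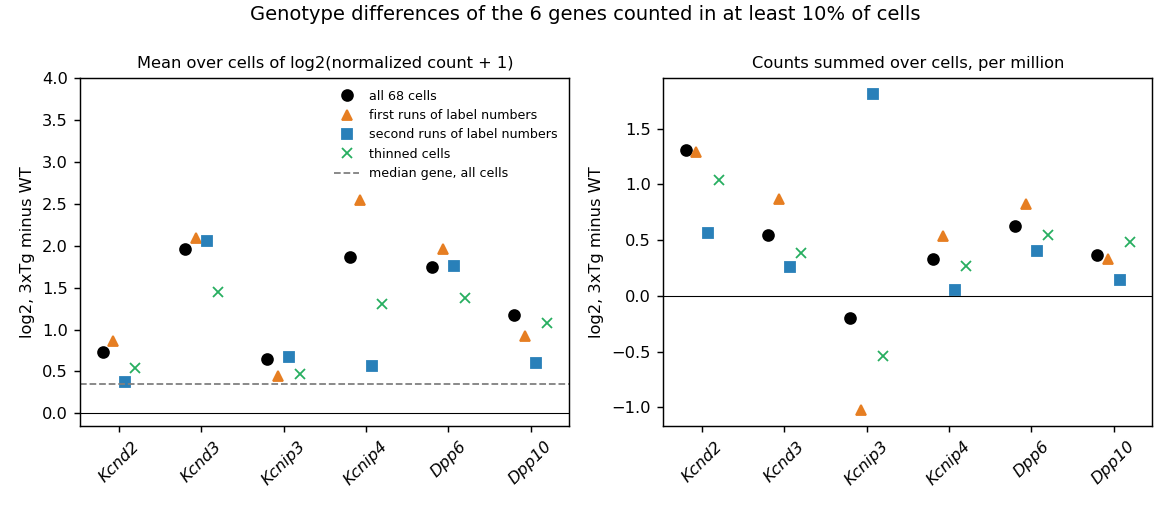
Genotype differences of the 6 Kv4 complex genes with a count in at least 7 neurons, 3xTg minus WT on the log2 scale, as the difference of the mean over neurons (left) and as the log2 ratio of summed CPM (right). Circles are all 68 neurons, triangles the first and squares the second runs of label numbers, crosses the thinned neurons, and the dashed line on the left the median difference of the mean over 13283 genes (0.35). Kcnd3 and Dpp6 stay between 1.76 and 2.09 in both runs on the left, Kcnip4 drops to 0.56 in the second runs, and Kcnip3 changes sign between runs on the right.

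**Figure D4:**
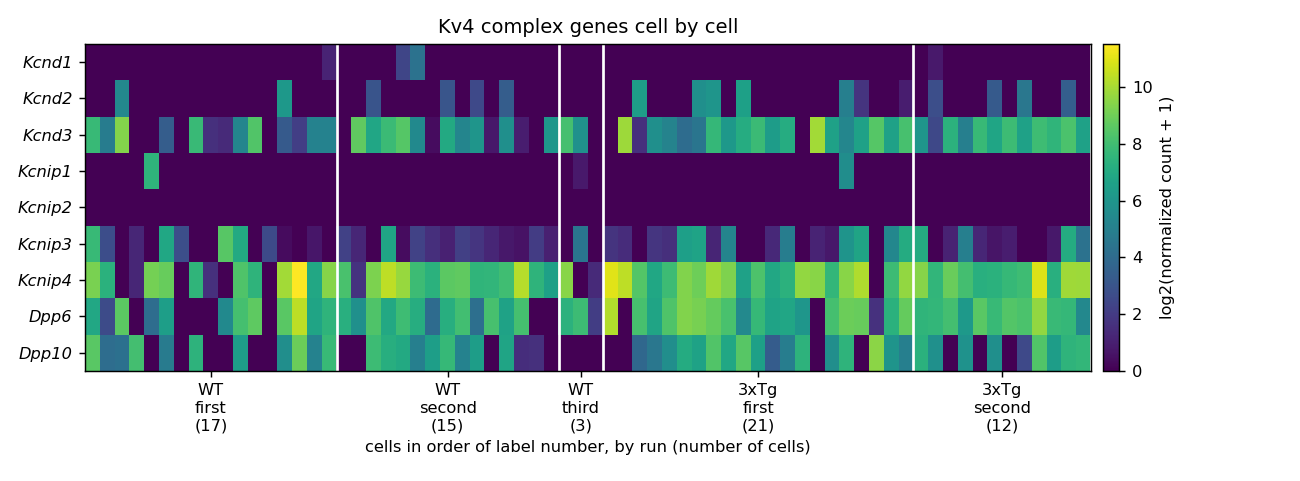
Level of the 9 genes in each of the 68 neurons, as log2(normalized count + 1) in colour, with neurons in order of their label number within the runs of each genotype. Of the 6 neurons without Kcnip4, 4 lie in the first WT run, as do 5 of the 9 without Dpp6, and the last WT run (3 neurons) has no Dpp10.

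Divided by exon length, Kcnip4 stood highest, followed by Dpp6 and Kcnd3. In CPM per kilobase of exon, Kcnip4 stood at 164 in 3xTg and 130 in WT, Dpp6 at 42.1 and 27.2, Kcnd3 at 20.0 and 13.7, Kcnip3 at 9.54 and 10.95, Dpp10 at 7.34 and 5.70, Kcnd2 at 1.94 and 0.782, and Kcnip1 at 0.527 and 1.68. The order of the 5 highest was the same in both genotypes, while Kcnd2 and Kcnip1 changed places. Over all neurons Kcnip4 ranked 550 among 16675 genes with a length, Dpp6 2037, Kcnd3 3556, Kcnip3 4864 and Dpp10 6209. The place of Kcnip3 depended on few neurons, since the 5 highest held 93.02% of its WT sum. By run, values taken after the data had been seen, Kcnip3 and Dpp10 stood at 19.2 and 6.09 CPM per kilobase in the first WT run, with Kcnd3 at 11.4, and at 2.77 and 6.25 in the second. In 3xTg they stood at 9.41 and 7.65 in the first run and at 9.72 and 6.89 in the second. Among the 46 neurons with at least 10 counts of both genes, Kcnip4 per kilobase exceeded Kcnd3 in all 46, with a median ratio of 6.95-fold and a range of 0.35 to 6.81 on the log2 scale. This minimum leaves out 4 neurons with 80 to 546 counts of Kcnd3 and at most 2 of Kcnip4, namely 3xTg 50, WT 5, WT 58 and WT 95. Of the 66 neurons with at least 1 count of either gene, Kcnip4 exceeded Kcnd3 in 61. Dpp6 exceeded Kcnd3 in 33 of 44 neurons (median 2.25-fold), Dpp10 exceeded it in 11 of 38 (median 0.665-fold), and Dpp6 exceeded Dpp10 in 35 of 41 (median 6.26-fold). Kcnip4 stood above Dpp6 in 50 of 52. With at least 1 count of either gene these were 46 of 64, 19 of 62, 51 of 62 and 59 of 66. Kcnip3 per kilobase exceeded Dpp10 in 14 of the 15 neurons with at least 10 counts of both, and Kcnd3 exceeded Kcnip3 in 4 of 17, a choice of neurons that leaves out the many with little Kcnip3. Of the neurons with at least 1 count of either gene, Kcnip3 exceeded Dpp10 in 32 of 63 and Kcnd3 exceeded Kcnip3 in 42 of 65, so Kcnip3 did not separate from its neighbours in the order. Where both pore genes held at least 10 counts, in 10 neurons, Kcnd3 exceeded Kcnd2 in 8, and with at least 1 count of either in 53 of 58. Transcript levels of this kind say nothing of the number of subunits in a channel. Kcnip4 made up 94.3% of KChIP counts in 3xTg and 91.4% in WT. Dpp6 made up 70.7% and 66.8% of DPP counts, and 85.1% and 82.7% per exon length, because Dpp10 exons span 15336 bases and those of Dpp6 6467.

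Most neurons held a transcript of each part of the complex. At least 1 count of a pore gene, of a KChIP gene and of a DPP gene was present together in 28 of 33 3xTg neurons (84.8%, 68.1 to 94.9) and 24 of 35 WT neurons (68.6%, 50.7 to 83.2). At a minimum of 10 counts this was 27 of 33 (81.8%, 64.54 to 93.02) and 19 of 35 (54.3%, 36.6 to 71.2), and with thinned neurons at 1 count 27 of 31 and 22 of 30. The intervals cover counting error only, with neurons taken as independent, and do not compare the genotypes. The 3 leading genes Kcnd3, Kcnip4 and Dpp6 occurred together in 28 3xTg and 21 WT neurons. The median number of the 9 genes with a count was 5 in 3xTg and 4 in WT, and no neuron had more than 7.

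Where the complex was incomplete, it was mostly the pore that lacked a count. In all, 10 neurons, 2 of 3xTg and 8 of WT, had less than 1 count of every Kcnd gene but at least 1 of a KChIP or DPP gene. The estimated counts can lie between 0 and 1, which is taken as no count throughout, and among the 10 only WT 65 held such a value, 0.5 of Kcnd3. These neurons had a median of 4949 genes with a count, against 8252 in neurons with a pore gene, while the median totals were 983665 and 1065665. Only 2 neurons had a pore and no KChIP count, 3xTg 50 and WT 5, and both held high Kcnd3 counts (333 and 546). Pore without DPP occurred in 3xTg 26, 3xTg 43, WT 11 and WT 74. The 3xTg neuron 43 had the highest Kcnd3 count of all (819). No neuron had a pore count with neither auxiliary family. In the other direction, 3xTg 24 had no pore count beside 1320 counts of Kcnip4 and 757 of Dpp6. WT 20, the neuron with the highest normalized level of Kcnip4 and of Dpp6, held 2 counts of Kcnd3. At a minimum of 10 counts 4 neurons, all of WT, lacked all 3 families.

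Members of one family were then set beside each other. All 17 neurons with Kcnd2 also had Kcnd3, against 41 of the 51 without Kcnd2, and all 17 had Dpp6. At 10 counts, 3xTg 29 and WT 18 held Kcnd2 without Kcnd3. Kcnip4 was counted in 43 of 47 neurons with Kcnip3 and in 19 of 21 without. Kcnip3 occurred without Kcnip4 in WT 9, WT 14, WT 17 and WT 95 and in no 3xTg neuron. Dpp6 was counted in 45 of 48 neurons with Dpp10 and in 14 of 20 without. All 5 leading genes Kcnd3, Kcnip4, Kcnip3, Dpp6 and Dpp10 had a count in 18 3xTg and 11 WT neurons.

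**Figure D5:**
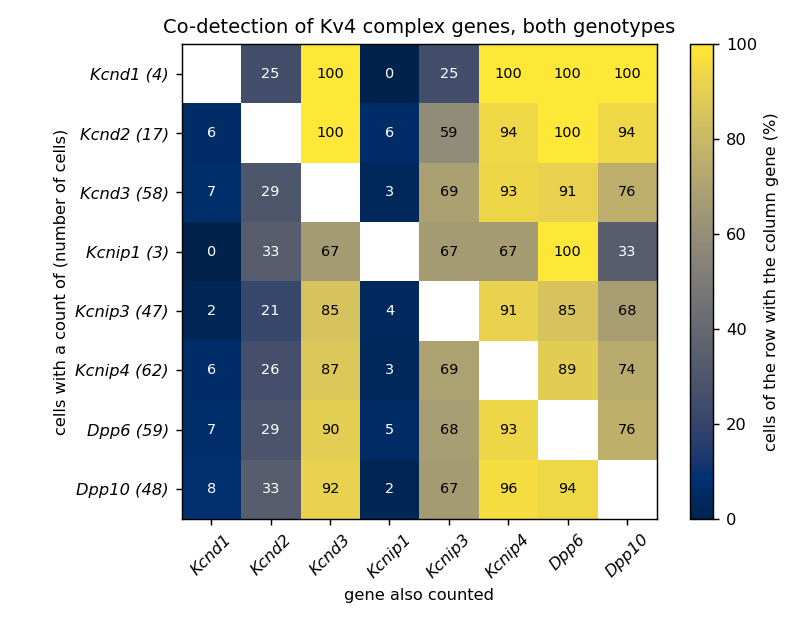
Co-detection of the 8 counted Kv4 complex genes over all 68 neurons. Each row takes the neurons with a count of 1 gene (their number in parentheses), and the colour and figure give the percent of them with a count of the column gene. All 17 Kcnd2 neurons had Kcnd3 and Dpp6, and Kcnip4 was present in 93% of the 58 Kcnd3 neurons.

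Levels of Kcnd3 and of the auxiliary genes were weakly related over all neurons, with values that differed between the genotypes. Spearman's rho over 68 neurons was 0.14 between Kcnd3 and Kcnip4, 0.16 between Kcnd3 and Dpp6 and 0.16 between Kcnd3 and Dpp10. Between Kcnd3 and Kcnip3 it was −0.09. It was 0.47 between Kcnip4 and Dpp6, 0.30 between Kcnip4 and Dpp10 and 0.34 between Kcnd2 and Dpp6. In 3xTg and WT taken apart, Kcnd3 had rho 0.00 and 0.22 with Kcnip4, −0.22 and 0.39 with Dpp6 and −0.03 and 0.26 with Dpp10. With Kcnip3 it had −0.13 and −0.16. Kcnip4 had 0.34 and 0.54 with Dpp6 and 0.05 and 0.50 with Dpp10. The difference between the genotypes in rho was not tested. Kcnip4 also had rho 0.59 with Calb1 and 0.51 with Th, and Dpp6 0.38 with Kcnn3, the SK3 channel gene of the second outward current in the study, against 0.21 for Kcnd3. These points share genotype and library depth, with rho 0.54 between Kcnip4 and the total count, 0.46 for Dpp6 and 0.22 for Kcnd3, and they are descriptions without a test.

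Likeness was taken over 3987 other genes that reached a normalized count of 1 in 80% or more of the neurons of 3xTg or of WT. Those most like Kcnd3 by rho over 68 neurons were Sccpdh (0.68), the kinesin gene Kif3a (0.65), Nat14 (0.56), Azi2 (0.55) and the mitochondrial carrier gene Slc25a25 (0.55), where the median gene had 0.10. Within 3xTg these 5 had rho 0.56, 0.59, 0.46, 0.26 and 0.34, and within WT 0.75, 0.62, 0.58, 0.71 and 0.51. All 5 also had a higher mean in 3xTg, by 1.25, 0.84, 1.84, 2.09 and 3.06, as had 71.1% of the 13283 genes. The value over all 68 neurons therefore includes the difference between genotypes. A gene could enter this comparison through 3xTg alone, which favours a higher mean there. Sccpdh, Nat14, Azi2 and Slc25a25 were counted in 29, 30, 30 and 27 3xTg neurons and in 25, 25, 25 and 15 WT neurons. Kif3a was counted in 33 and 35. Most like Kcnip4 was 5730480H06Rik, with rho 0.93, which lies on the opposite strand inside the span of Kcnip4. It was counted in 57 neurons, all of them with Kcnip4, and its sum was 5.53% of that of Kcnip4. The 2 genes share no exon base in GENCODE vM21. The libraries are described as directional, the use of strand in counting is not given in the sources used here, and whether reads of one were counted for the other was not tested. Next came Vps28 (0.69), the nuclear transport GTPase gene Ran (0.67), the mitochondrial ribosomal gene Mrps10 (0.64) and Hcfc1r1 (0.63), with a median gene at 0.15. Counts of the large Kcnip4 and Dpp6 loci were often not whole (tolerance 0.001), in 32 and 28 of 33 3xTg neurons, against 9 for Kcnd3. On the opposite strand, 1700095B22Rik overlaps the start of Kcnd3 and Speer4b lies inside Dpp6, and they had sums of 0.363% and 1.08% of theirs. Kcnmb1 lies opposite to Kcnip1, inside its span, and its sum of 567 was 298.4% of that of Kcnip1. It was counted in 54 neurons without Kcnip1 and in 2 with it.

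A list of 18 further genes was examined, of A-type pores, beta and Kcne subunits, Kv4-binding proteins and the peptidases Dpp4, Dpp8 and Dpp9, which are relatives of Dpp6 and not channel subunits, all with a count in some neuron, and 11 had a count in at least 7. Of the 11, 8 were higher in 3xTg by the mean over neurons, against 71.1% of all genes, 3 by at least 1 on the log2 scale, against 21.2%, and none lower by 1, against 0.693%, with a median difference of 0.34 against 1.46 for the 6 complex genes and 0.35 for all genes. The 3 highest were Dpp9 (1.58), a true peptidase related to Dpp6, the Kv beta subunit gene Kcnab2 (1.13) and Ncs1 (1.03), a calcium sensor that binds Kv4 channels. The 3 lowest were the A-type pore gene Kcnc4 (−0.10), the Kv1.4 pore gene Kcna4 (−0.08) and the scaffold gene Dlg1 (−0.06). By sums 2 were higher by at least 1, Dlg4 and Dpp9, against 11.4% of all genes, and 3 lower, Kcna4, Kcnc4 and Flna, against 13.4%. The sums of Dlg4 were 176 counts in 12 3xTg neurons and 14 counts in 4 WT neurons. Its ratio thus rests on few WT counts, and its difference of the mean was 0.93. With each neuron left out in turn, a choice made after seeing the data, Dlg4 ranged from 3.13 to 4.296 and Dpp9 from 1.18 to 2.17, whereas the lower values rested on single WT neurons. Kcna4 went from −1.77 to −0.43 without WT 94, Kcnc4 from −1.61 to −0.02 without WT 14, and Flna from −1.03 to −0.25 without WT 21. Per kilobase of exon, Kcna4 and Kcnc4 stood at 1.11 and 0.758 CPM in 3xTg and 3.797 and 2.32 CPM in WT, below Kcnd3 in both genotypes.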

How the data were processed

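Patch-seq libraries of 33 3xTg and 35 WT neurons were analysed. Reads were trimmed by the authors and aligned with Strand NGS against RefSeq transcripts of mm10, duplicates were discarded, and estimated counts per gene were deposited, of which 55.3% of those above 0 were not whole (tolerance 0.001). The authors also deposited log2 values, normalized as in DESeq2 with an unstated shift per gene, which served as an alternative. PCR products without stated molecular identifiers are not independent molecules, so intervals and limits cover counting error only.

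Size factors were the median of ratios over 787 genes counted in each of the cells. Levels are log2(normalized count + 1), and a difference sets the mean of the 3xTg cells against that of the WT cells. Sums, TMM factors and thinning used rounded counts. A count of 0 allows up to 3 counts. Genes were counted as higher or lower past 1 on the log2 scale. Exon lengths came from GENCODE vM21. Groups came from the sample titles. The calculations were tested on simulated data. Where nothing says that cells came from separate mice, spread across cells is not spread across animals.

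The members and gene lists were chosen with earlier results of these data known. All members are named, genes of the list of 18 by the 3 highest and 3 lowest differences, and the 5 genes most like Kcnd3 and like Kcnip4. Some items are not reported here, and genes of that list among them are left out of it and its counts. Names outside this rule, among them genes past 1 by sums, marker genes and single neurons, were chosen after values were seen. The highest Spearman's rho between 2 cells was 0.81, and no cell was counted as a duplicate. Doublets were not called. Python 3.11.15 with numpy 2.4.6, scipy 1.17.1 and pandas 2.3.3, and R 4.3.3 with edgeR 4.0.16 for TMM factors, were used. Alternatives were CPM, TMM, pseudocounts of 0.1 and 10, thinning, a minimum of 10 counts, cells with a count alone, cells without a count of Pvalb, Tmem119, P2ry12 or Aldh1l1, runs of label numbers, the authors' log2 values and leaving out each cell. Levels per kilobase by run, tallies of neurons with a count of either gene and sums of the listed genes without single cells were added after seeing the data.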

Additional observations from a re-analysis of the deposited data

How the results depend on the processing

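The median difference of the mean over the 8 counted members was 0.95. With a filter that keeps genes reaching a normalized count of 1 in 80% or more of the 3xTg or of the WT cells it was 1.87, since the filter leaves Kcnd3, Kcnip4 and Dpp6, beside 0.47 over the 3988 genes it keeps. Kcnd3 passed through 3xTg alone (93.9% of cells, 71.4% in WT), so the 1.87 supports nothing. The other settings gave from 0.47 (pseudocount 10) to 1.48 (pseudocount 0.1), each within a factor of 1.5 of the reported fold, and leaving out each cell gave 0.86 to 1.06. The median log2 ratio of sums, 0.35, ranged from 0.26 (second runs) to 0.54 (first runs), and from 0.25 to 0.46 with each cell left out. The share of 3xTg cells with all 3 families, 84.8%, was 100% in the second run of label numbers (12 of 12) and 76.2% in the first, and the cause was not tested. The WT share, 68.6%, stayed inside its interval in all settings run. Under all 10 normalizations, pseudocounts and subsets of cells of the mean, the 6 members in at least 7 cells were above 0, and relative to the median gene Kcnd2 alone fell below it (second runs). From 2 to 5 of the 6 were past 1. Of single genes, 37 of 52 alternative log2 ratios of sums lay outside the narrow counting interval of the reported value, and that of Kcnip1, −1.67, ranged from −1.73 to 5.43 with each cell left out and reversed without WT 7, where 1 WT count remained. No paired analysis was possible because the genotypes share no label number. Kcnd1, Kcnip1 and Kcnip2 were counted in at most 3 cells of a genotype, and the part of depth in this was not tested.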
